A study of Mus musculus with 36 samples.

Results

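Fibroblast growth factor (FGF) signalling in knee cartilage was examined through 10 genes, namely the ligands Fgf2 and Fgf18, the receptors Fgfr1, Fgfr2, Fgfr3 and Fgfrl1, and the feedback inhibitors Spry1, Spry2, Spry4 and Dusp6. These are 10 of the 23071 genes named in the RNA count files, and they own 18 of the 30048 RefSeq transcript rows. Each gene was represented by the row with the highest mean count over 12 RNA libraries. The mice were C57BL/6J males operated on at 12 weeks of age, and articular cartilage was microdissected from tibia and femur. Surgery destabilized the medial meniscus of the right knee (DMM), which models osteoarthritis (OA) after trauma, and the left knee, left unoperated, was the control. Cartilage was taken 4 or 12 weeks later. Each limb and week has 3 RNA libraries, and each library pools the tissue of 3 knees. The same numbers of oxidative bisulfite (oxBS) libraries, which read 5-methylcytosine (5mC), came from other mice. The control is a contralateral limb, so a knee of an operated animal and not of a naïve or sham-operated one.

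The representative transcripts lie on GRCm38 as follows. Fgf2 is at chr3:37348653-37404830 and Spry1 at chr3:37639947-37644599, both on the plus strand. Fgf18 is at chr11:33116970-33147400 on the minus strand. Fgfr3 is at chr5:33721724-33737068 and Fgfrl1 at chr5:108694229-108706950, both on the plus strand. Fgfr1 is at chr8:25518759-25575718 on the plus strand and Fgfr2 at chr7:130162451-130266808 on the minus strand. Spry2 is at chr14:105891947-105896819 and Spry4 at chr18:38586247-38601347, both on the minus strand, and Dusp6 is at chr10:99263231-99267489 on the plus strand. Fgfr1 has 3 transcript rows, Fgfr2 and Fgfrl1 have 2 each, Fgfr3 has 5, and these rows share reads, so a receptor's value stands for the gene and not for 1 isoform. An antisense gene, Gm34921, overlaps 626 of the 2797 exon bases of Dusp6, and another, Gm16159, overlaps 125 of the 5025 exon bases of Fgfr1. The strand setting of the counting is not given in the sources used here, so reads from these stretches cannot be assigned to 1 strand.

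FGF ligands bind receptor tyrosine kinases at the cell surface together with heparan sulfate, and the receptors pass the signal to the RAS and MAP kinase cascade. Sprouty proteins and the phosphatase Dusp6, which removes phosphate from ERK, are switched on by that cascade and dampen it. In cartilage, Fgf18 is known as a growth factor that favours matrix formation and signals largely through Fgfr3, Fgf2 is stored in the pericellular matrix and released on injury, and activating changes of Fgfr3 restrain growth plate chondrocytes. Fgfrl1 binds FGF ligands but lacks the tyrosine kinase domain.

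The starts of Fgf18, Fgfr3 and Fgfrl1 are shown because these genes passed the test between weeks and because 5mC was read there. Each line gives the 250 bases before the transcript start on the strand of the gene, from RefSeq (GRCm38.p6). Such a stretch at the start used here was taken for 8 of the 10 genes and for neither Fgfr1 nor Spry4. Capitals mark the CpGs with 10 or more reads in each oxBS library of both weeks.
Fgf18 (chr11:33147401-33147650, minus strand): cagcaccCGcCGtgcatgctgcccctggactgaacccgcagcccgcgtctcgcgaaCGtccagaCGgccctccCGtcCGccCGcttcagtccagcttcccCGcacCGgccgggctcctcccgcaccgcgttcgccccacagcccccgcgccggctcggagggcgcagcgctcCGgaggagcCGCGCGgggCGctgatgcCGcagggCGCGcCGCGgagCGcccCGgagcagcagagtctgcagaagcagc
Fgfr3 (chr5:33721474-33721723, plus strand): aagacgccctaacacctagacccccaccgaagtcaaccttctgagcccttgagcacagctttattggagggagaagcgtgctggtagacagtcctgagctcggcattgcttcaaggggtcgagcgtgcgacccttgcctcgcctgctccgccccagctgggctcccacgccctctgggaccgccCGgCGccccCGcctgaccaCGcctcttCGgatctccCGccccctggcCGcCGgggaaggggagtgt
Fgfrl1 (chr5:108693979-108694228, plus strand): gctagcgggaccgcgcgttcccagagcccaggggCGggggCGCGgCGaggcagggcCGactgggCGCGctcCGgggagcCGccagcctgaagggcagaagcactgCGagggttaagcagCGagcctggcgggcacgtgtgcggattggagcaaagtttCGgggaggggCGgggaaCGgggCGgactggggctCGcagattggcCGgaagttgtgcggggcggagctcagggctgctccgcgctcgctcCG

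The Fgf18 stretch held 37 CpGs, of which 21 were measured at both weeks. The Fgfrl1 stretch held 30 CpGs with 18 measured, and the Fgfr3 stretch held 19 with 8 measured. Over the 32851 promoters in the RefSeq table the median was 6 CpGs, and 2.20% of them held at least as many as Fgf18. By contrast, the stretch before the Fgfr2 start used here held 2 CpGs, and none was measured at both weeks. Reading both strands, the GC box GGGCGG occurred 1 time before Fgf18, 3 times before Fgfr3 and 4 times before Fgfrl1, and it is present in 32.7% of all promoters of this length. The MspI site CCGG, at which the DNA was cut for the methylation libraries, occurred 5, 2 and 2 times, respectively, and is present in 47.0% of promoters. Matches of different motifs may share bases. The TATA box TATAAA was found in none of the 3 stretches and in 12.4% of all promoters.

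The receptors and Dusp6 were the most abundant of the 10 genes, and the Sprouty genes and ligands were the least. Levels between genes were compared as CPM per kb, the count scaled to a common library size (CPM) and divided by the transcript length in kilobases. In control cartilage at 4 weeks, Fgfr1 stood at 39.3 ± 10.95 CPM per kb, Fgfr2 at 26.0 ± 5.88, Fgfr3 at 24.9 ± 9.65, Dusp6 at 18.5 ± 3.49 and Fgfrl1 at 16.02 ± 8.31 (SD, n = 3). Neighbours in this order overlapped in their libraries. A gap followed, in which no library of Fgfrl1 overlapped one of Fgf18, at 3.33 ± 2.09 CPM per kb. Spry1 at 2.85 ± 1.08, Fgf2 at 1.92 ± 0.554 and Spry4 at 1.49 ± 0.383 followed, where neighbours again overlapped but every Spry1 library was above every Spry4 library, and Spry2 was apart from them at 0.441 ± 0.0538 CPM per kb. Fgfr1 had the highest mean in all 4 groups and Spry2 the lowest in 3. In control cartilage at 12 weeks the lowest mean was that of Fgf18 at 0.423 ± 0.222 CPM per kb, whose libraries overlapped those of Spry2. In DMM cartilage at 12 weeks all 3 Fgfr1 libraries, at 52.0 ± 6.02 CPM per kb, were above those of Fgfr3, at 26.0 ± 2.54.

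**Figure D1:**
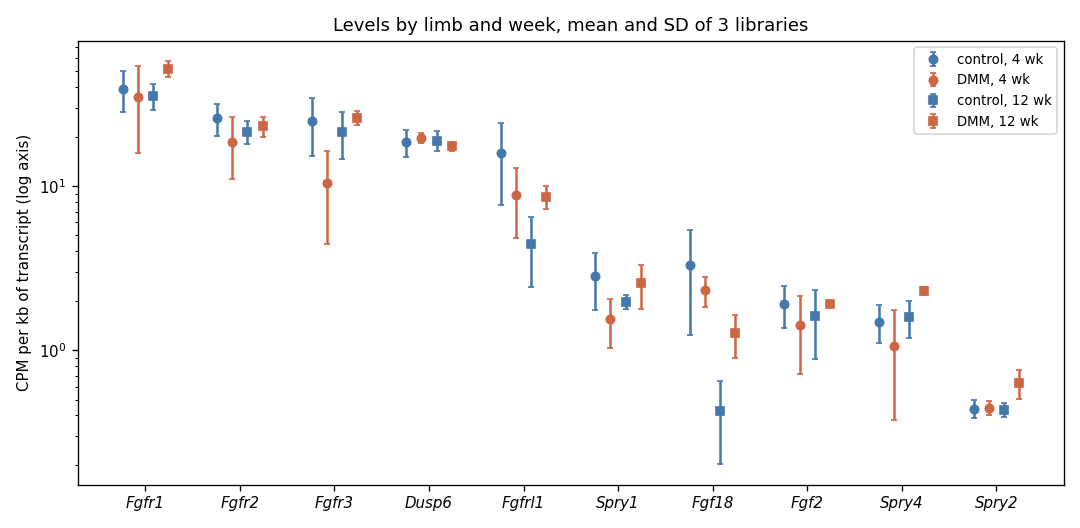
Levels of the 10 genes in CPM per kilobase of transcript (log axis), ordered by their mean, with points for the mean and bars for the SD of 3 libraries per limb and week. The 3 signalling receptors and Dusp6 sit between 10.4 and 52.0 CPM per kb, and Spry2 between 0.433 and 0.628.

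The RNA libraries held 27706547 to 62737656 counts. The sparsest genes were Fgf2 and Spry2, with 17 to 104 and 27 to 59 counts per library, and Fgf18 lay between 17 and 327, whereas Fgfr1 had 3244 to 12758. The 15 chondrocyte genes used as markers (Acan, Col2a1 and Sox9 among them) were all detected in each group, with a summed level of 6264 to 27363 CPM per library. The tissue also carried RNA of other cells. Neutrophil and bone marrow genes summed to 9144 to 44355 CPM, erythroid genes to 7188 to 21122 CPM (with the reads that Hba-a1 and Hba-a2 share counted for both) and skeletal muscle genes to 119 to 24769 CPM, and no marker of these lists was at 0 in any group. In such bulk samples, fewer cells of a type and less RNA per cell cannot be told apart.

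The first comparison asked how FGF signalling genes differed between DMM and control cartilage at the earlier week, 4 weeks after surgery. Of the 10 genes, 8 were lower in DMM on the fitted scale, with a median log2 fold change of -0.47 against -0.03 over all transcripts tested, but none passed edgeR's quasi-likelihood test at an adjusted p under 0.05 (16 of 21140 transcripts did, or 0.0757%). At an unadjusted p under 0.05 there were 2, Fgfr3 and Spry1, against 13.7% of all transcripts. DESeq2 called 3.44% of transcripts and none of the 10 genes. In no gene did the 3 DMM libraries lie all below or all above the 3 control libraries, which 10.4% and 10.8% of transcripts did, respectively.

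Among the receptors at 4 weeks, Fgfr3 showed the widest gap. Its controls stood at 131, 126 and 58.1 CPM and its DMM libraries at 72.9, 33.6 and 25.6 CPM. The groups overlapped only through control replicate 3 and DMM replicate 1, and the log2 fold change was -1.24 ± 0.45 (SE, edgeR adjusted p = 0.323). Fgfrl1 was at 63.4, 44.8 and 19.4 CPM in controls and at 36.0, 17.7 and 17.1 CPM in DMM, with a log2 fold change of -0.84 ± 0.45 (SE, edgeR adjusted p = 0.407). Here too the lowest control fell among the DMM libraries. Fgfr2 had 166, 133 and 105 CPM in controls and 140.3, 87.6 and 62.8 CPM in DMM. Fgfr1 had 232, 226 and 134 CPM in controls, and its DMM libraries, at 282, 144 and 98.9 CPM, spanned a wider range than the controls.

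Of the ligands, Fgf18 was at 7.66, 6.26 and 1.51 CPM in the 4-week controls and at 4.43, 3.08 and 3.23 CPM in DMM. Control replicate 3 lay below all DMM libraries and the other controls above them, so no direction held across libraries (log2 fold change -0.51 ± 0.52, SE, edgeR adjusted p = 0.638). Fgf2 was low, at 1.62, 1.48 and 0.893 CPM in controls and 1.51, 0.951 and 0.518 CPM in DMM. Among the inhibitors, Spry1 was at 10.1, 6.34 and 4.88 CPM in controls and at 5.30, 3.26 and 2.99 CPM in DMM, a log2 fold change of -0.88 ± 0.36 (SE, edgeR adjusted p = 0.355). Only DMM replicate 1 reached into the control range. Spry4 had 8.29, 7.76 and 4.95 CPM in controls and 8.68, 3.76 and 2.56 CPM in DMM, where replicate 1 was the highest of all 6 libraries. The other inhibitors were close to level, with log2 fold changes of 0.01 ± 0.31 for Spry2 and 0.09 ± 0.20 for Dusp6 (SE).

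Cell type markers also shifted at 4 weeks, some lists downward like most of these genes and others upward. Of 15 chondrocyte genes, 12 were lower in DMM on the fitted scale, with a median log2 fold change of -0.81, none passed edgeR's test, and their summed level was 10918 to 27363 CPM in controls and 7757 to 14624 CPM in DMM. Chad had the highest mean of the 15 at both weeks, so these sums weigh it most. At 4 weeks its means were 14511 CPM in controls and 6860 CPM in DMM. Col2a1, Col11a1 and Hapln1 had log2 fold changes above 0. All 15 skeletal muscle genes were lower, with a sum of 6574 to 24769 CPM in controls and 636 to 3949 CPM in DMM, and 1 passed edgeR's test. Synovial fibroblast genes summed to 323 to 2002 CPM in controls and 2880 to 4194 CPM in DMM, and none of the 7 passed. Col3a1 had the highest level of them, with means of 1065 CPM in controls and 2954 CPM in DMM. Pi16 went the other way, lower in every DMM library (log2 fold change -0.44). Osteoblast and osteocyte genes summed to 6131 to 6545 CPM in controls and 8341 to 10305 CPM in DMM, without overlap. Ibsp gave the largest part of that difference, with means of 2987 CPM in controls and 5830 CPM in DMM. Of the 10 genes, 8 were higher on the fitted scale, and Sp7 and Sost were lower (log2 fold changes -0.42 and -0.53). All 7 macrophage genes were higher in DMM on the fitted scale (median log2 fold change 0.75). The part of these markers in the results for Fgfr3, Fgfrl1 and Spry1 was not tested. When 1 library was left out, the Fgfr3 log2 fold change ranged from -1.84 (without DMM replicate 1) to -0.96 (without DMM replicate 3). Without control replicate 1 the values were -0.45 for Fgfrl1, -0.54 for Spry1 and -0.12 for Fgf18. At the other end, Fgfrl1 was at -1.30 and Spry1 at -1.19 when DMM replicate 1 was dropped, and Fgf18 at -0.97 when control replicate 3 was.

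At 12 weeks the signs on the fitted scale were mostly the opposite. Of the 10 genes, 9 were higher in DMM on the fitted scale, with a median log2 fold change of 0.46 against 0.01 over all transcripts tested. Again none passed edgeR's test, which called 1 of 21010 transcripts (0.00476%). At an unadjusted p under 0.05 there were 4 genes (Fgf18, Fgfr1, Fgfrl1 and Spry4) against 16.3% of all transcripts. In 5 genes (Fgf18, Fgfr1, Fgfrl1, Spry2 and Spry4) every DMM library lay above every control library, which 10% of transcripts did, and in none did every DMM library lie below, which 8.85% did. An exact permutation test of 3 libraries against 3 cannot give a two-sided p below 0.1. Groups without overlap always reach that value, so the test adds nothing for these 5 genes.

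Fgf18 had the largest difference of the 10 genes at 12 weeks. Its controls were at 0.450, 1.05 and 0.462 CPM (19, 65 and 17 counts) and its DMM libraries at 2.38, 2.18 and 1.30 CPM (113, 57 and 57 counts). The groups did not overlap, and the log2 fold change was 1.56 ± 0.44 (SE, edgeR adjusted p = 0.224), or 2.96-fold. DESeq2 called it at an adjusted p of 0.0382, among 4.02% of transcripts. Without control replicate 2, the control with the highest level, edgeR called Fgf18 (log2 fold change 2.06, adjusted p = 0.0448) and Fgfrl1 (1.34, adjusted p = 0.0367), and it then called 4.04% of all transcripts. Without any 1 of the other 5 libraries it called neither, with an edgeR adjusted p for Fgf18 of 0.672 and 0.517 without control replicates 1 and 3 and of 0.447, 0.686 and 0.111 without DMM replicates 1, 2 and 3. In 1 fit of all 12 libraries that p was 0.453. The other ligand, Fgf2, overlapped between groups, with 0.972, 1.68 and 0.707 CPM in controls and 1.39, 1.34 and 1.27 CPM in DMM.

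Of the receptors at 12 weeks, Fgfrl1 was at 6.94, 17.5 and 10.9 CPM in controls and at 23.5, 26.3 and 19.0 CPM in DMM, a log2 fold change of 0.97 ± 0.31 (SE, edgeR adjusted p = 0.253). Fgfr1 was at 186, 205 and 143 CPM in controls and 268.9, 287 and 228 CPM in DMM, a log2 fold change of 0.56 ± 0.18 (SE, edgeR adjusted p = 0.253). Every DMM library of both genes exceeded every control. Fgfr3, which had the widest receptor gap at 4 weeks, was at 86.5, 122 and 63.7 CPM in controls and 97.7, 114 and 118 CPM in DMM, and Fgfr2 was at 118, 125 and 90.8 CPM against 117, 139 and 106 CPM. Both overlapped between limbs, with log2 fold changes of 0.28 ± 0.22 and 0.13 ± 0.17 (SE). The Fgfr3 value was 0.069 without control replicate 3 and 0.52 without control replicate 2.

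Of the inhibitors at 12 weeks, Spry4 was at 6.11, 9.55 and 6.66 CPM in controls and at 11.5, 10.6 and 10.3 CPM in DMM, with no overlap and a log2 fold change of 0.54 ± 0.20 (SE, edgeR adjusted p = 0.275). Spry2 was also apart, at 0.806, 0.953 and 0.951 CPM in controls and 1.12, 1.61 and 1.21 CPM in DMM, but its counts per library were few and the log2 fold change was 0.53 ± 0.30 (SE, edgeR adjusted p = 0.393). Spry1 overlapped, with 4.36, 5.20 and 5.22 CPM in controls and 8.03, 6.81 and 4.28 CPM in DMM. Dusp6 differed from the rest in sign, though by less than its error. It had 46.8, 51.1 and 61.3 CPM in controls and 46.2, 47.7 and 52.6 CPM in DMM, a log2 fold change of -0.11 ± 0.14 (SE, edgeR adjusted p = 0.684). When 1 library was left out, that value ranged from -0.22 to -0.011.

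The chondrocyte markers moved the same way as most of these genes at 12 weeks. All 15 were higher in DMM on the fitted scale, with a median log2 fold change of 0.54, none passed edgeR's test, and their sum was 6264 to 16970 CPM in controls and 13743 to 21061 CPM in DMM. Of 7 synovial fibroblast genes, 6 were higher on the fitted scale and Pi16 was lower (log2 fold change -0.24), with a median log2 fold change of 1.34, none passed edgeR's test, and their sum was 372 to 642 CPM in controls and 1025 to 2296 CPM in DMM. Skeletal muscle genes overlapped between limbs, at 119 to 16642 CPM in controls and 678 to 12907 CPM in DMM. All 9 neutrophil and bone marrow genes, all 7 erythroid genes (of which Hba-a1 and Hba-a2 hold the same reads) and all 7 macrophage genes were lower in DMM on the fitted scale, with median log2 fold changes of -0.50, -0.32 and -0.41, and none passed. The osteoblast and osteocyte sum overlapped, at 5942 to 11406 CPM in controls and 9254 to 11158 CPM in DMM, and of its 10 genes 7 were higher on the fitted scale, 4 of them (Ibsp, Mepe, Sost and Sp7) in every DMM library, with none passing. The part of these markers in the 12-week differences was not tested.

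**Figure D2:**
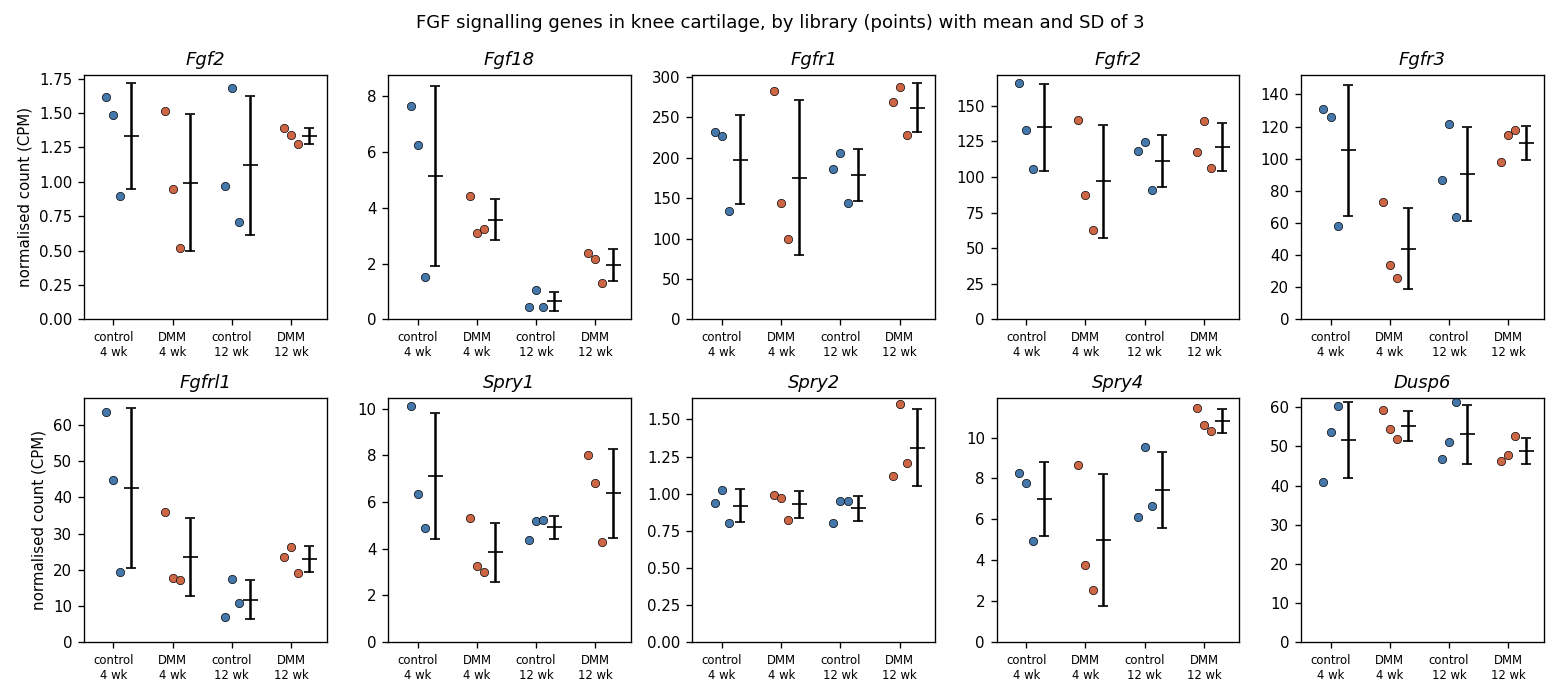
Normalised counts (CPM) of the 10 genes in each RNA library, grouped by limb and week, with black bars for the mean and SD of 3 libraries. At 12 weeks all 3 DMM libraries of Fgf18, Fgfr1, Fgfrl1, Spry2 and Spry4 are above all 3 controls, and at 4 weeks the limbs overlap in every gene.

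The 2 weeks were then set against each other. The interaction of limb and week was taken from 1 fit of 12 libraries. The DMM minus control difference, taken with its sign and not by its size, was more positive at 12 than at 4 weeks for 9 of the 10 genes. No gene passed, with edgeR calling 0% of 21618 transcripts. At an unadjusted p under 0.05 there were 4 genes against 12.3% of all transcripts. These were Fgf18 with a change in log2 fold change of 2.07 ± 0.74, Fgfrl1 with 1.81 ± 0.61, Fgfr3 with 1.53 ± 0.55 and Spry1 with 1.25 ± 0.46 (SE), each with an edgeR adjusted p of 0.405. DESeq2 called none of the 10 in this interaction either.

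Between weeks, the control limb changed in Fgf18 and Fgfrl1. In control cartilage Fgf18 fell by 2.94 ± 0.55 on the log2 scale from 4 to 12 weeks (SE, edgeR adjusted p = 0.0158), from a mean of 5.14 ± 3.22 CPM to 0.654 ± 0.343 CPM (SD, n = 3). Fgfrl1 fell by 1.85 ± 0.44 (SE, edgeR adjusted p = 0.0346), from 42.6 ± 22.1 CPM to 11.8 ± 5.34 CPM (SD, n = 3). In both genes all 3 controls of 12 weeks were below all 3 of 4 weeks, and the share of all transcripts that did so was not computed. These 2 of 10 genes were called where 5.69% of all transcripts were. Marker sums of the control limb shifted between the same weeks, although the libraries of the weeks overlapped in every sum given here. The synovial fibroblast sum, for example, was 323 to 2002 CPM at 4 weeks and 372 to 642 CPM at 12 weeks. From 4 to 12 weeks, the chondrocyte sum went from 10918 to 27363 CPM to 6264 to 16970 CPM, and the medians went from 7708 to 2126 CPM for skeletal muscle, from 15366 to 37096 CPM for neutrophil and bone marrow, from 1469 to 406 CPM for synovial fibroblast, from 285 to 82.3 CPM for adipocyte and from 6331 to 9215 CPM for osteoblast and osteocyte genes. Their part in these calls was not tested. Neither call held when certain single libraries were left out. Leaving out control replicate 1 of 4 weeks gave an edgeR adjusted p of 0.0587 for Fgf18 and 0.136 for Fgfrl1. Control replicate 2 of 4 weeks gave 0.0611 and 0.111. Control replicate 1 of 12 weeks gave 0.0958 and 0.149, and control replicate 3 of 12 weeks gave 0.0634 and 0.108. Those runs called 202, 166, 37 and 265 of all transcripts, respectively, against 1229 with all libraries. Both calls held without either of the other controls. Over all runs without 1 control, the log2 difference stayed between -3.49 and -2.56 for Fgf18 and between -2.26 and -1.47 for Fgfrl1. In the DMM limb, the log2 differences of the same genes were -0.87 ± 0.52 for Fgf18 and -0.04 ± 0.43 for Fgfrl1 (SE). There too all 3 Fgf18 libraries of 12 weeks were below all 3 of 4 weeks.

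In the DMM limb, Fgfr3 rose by 1.32 ± 0.40 on the log2 scale (SE, edgeR adjusted p = 0.0322), from 44.0 ± 25.3 CPM at 4 weeks to 109.9 ± 10.7 CPM at 12 weeks (SD, n = 3). All 3 libraries of 12 weeks were above all 3 of 4 weeks in Fgfr3, and also in Spry2 and Spry4. The share of all transcripts that did so was not computed. Fgfr3 was the 1 gene of the 10 called there, against 23.6% of all transcripts. DESeq2 called 2, adding Spry4 at a log2 fold change of 1.08 (adjusted p = 0.0237), against 29.9% of transcripts. Without DMM replicate 1 of 4 weeks edgeR called 4 genes (Fgfr1, Fgfr3, Spry1 and Spry4), against 29.2% of transcripts. Without any 1 of the other 5 DMM libraries it called none of the 10, with an adjusted p for Fgfr3 of 0.126 and 0.147 without replicates 2 and 3 of 4 weeks, and of 0.0595, 0.0805 and 0.0866 without replicates 1, 2 and 3 of 12 weeks. Time after surgery, the age of the mice and any difference in how the libraries of each week were made cannot be told apart in these comparisons. The RNA titles of the weeks differ in form, and whether their libraries were made together is not given in the sources used here. The chondrocyte sum was 7757 to 14624 CPM in DMM at 4 weeks and 13743 to 21061 CPM at 12 weeks. The neutrophil and bone marrow sum was higher at 12 weeks without overlap, from 13509 to 20053 CPM to 21136 to 34378 CPM. Other sums were lower at 12 weeks without overlap, from 2880 to 4194 CPM to 1025 to 2296 CPM for synovial fibroblast, from 717 to 1374 CPM to 384 to 536 CPM for macrophage, from 166 to 200.2 CPM to 104 to 134 CPM for endothelium and from 211 to 353 CPM to 83.4 to 133 CPM for adipocyte genes. The part of these markers in the Fgfr3 change was not tested.

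**Figure D3:**
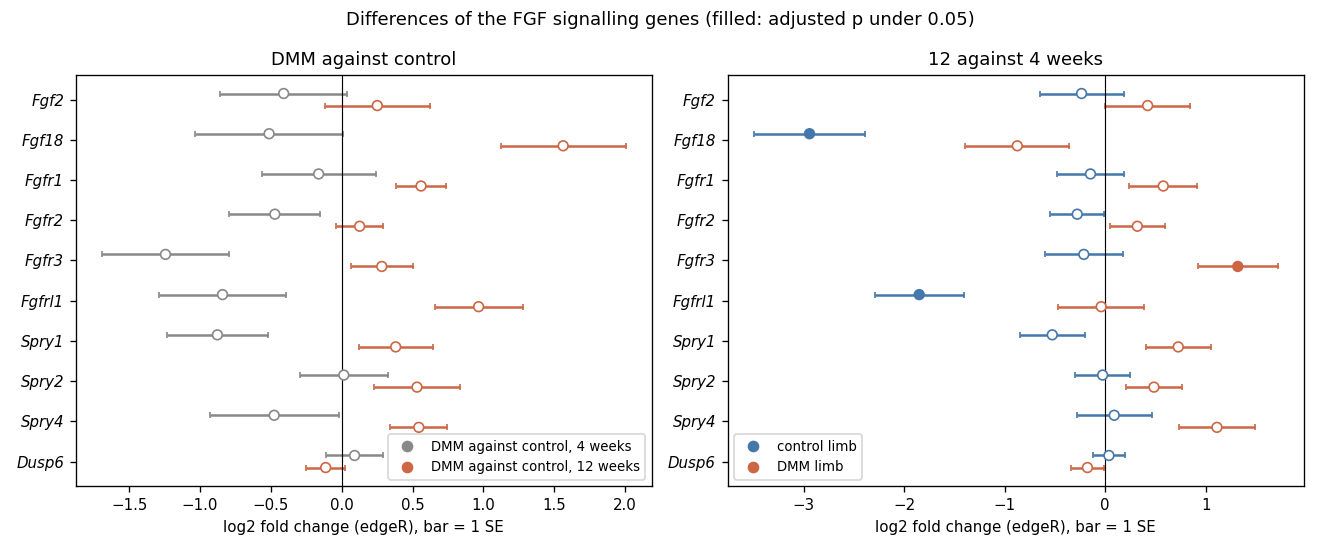
Log2 fold changes of the 10 genes from edgeR, with bars of 1 SE. The left panel shows DMM against control at 4 and 12 weeks and the right panel 12 against 4 weeks in each limb. Filled points have an adjusted p under 0.05, which holds for Fgf18 and Fgfrl1 in the control limb and Fgfr3 in the DMM limb.

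Across the 12 libraries, Fgf2 varied with Fgfr1, Fgfr2 and Fgfr3, and Fgfr1 with Fgfr2 and with all 3 Sprouty genes. Of 45 pairs of the 10 genes, 10 had Benjamini-Hochberg adjusted permutation p under 0.05 for both Pearson's r and Spearman's rho of log2 CPM, and none of these 10 held Dusp6. Fgf18 varied with Fgfrl1, with r = 0.903 (adjusted permutation p = 0.00191) and rho = 0.776 (adjusted permutation p = 0.0336), and r stayed at 0.817 without the 2 libraries farthest in Fgf18. Within weeks r was 0.846 at 4 weeks (exact p = 0.0319) and 0.946 at 12 weeks (exact p = 0.00278, n = 6 each). Fgfr1 varied with Spry4, with r = 0.909 (adjusted permutation p = 0.00191) and rho = 0.853 (adjusted permutation p = 0.0193). That relation gave r = 0.810 without the 2 farthest libraries, 0.960 at 4 weeks (exact p = 0.00694) and 0.849 at 12 weeks (exact p = 0.0292, n = 6 each). Dusp6 had an r below 0 with each of the other 9 genes, from -0.51 to -0.21, and the smallest adjusted permutation p was 0.184. The points of each relation are the same 12 libraries and share their depth and cell content. The permutations shuffled libraries without regard to limb or week, so these p-values also take in differences between limbs and weeks. How many pairs of other genes would pass was not computed.

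The relation to cartilage content was computed against the mean log2 CPM of the 15 chondrocyte genes, the 15 skeletal muscle genes and the 7 synovial fibroblast genes, in 30 relations. Fgf2 was the 1 gene whose Pearson and Spearman values both passed for chondrocyte genes, with r = 0.817 (adjusted permutation p = 0.0399) and rho = 0.783 (adjusted permutation p = 0.0417). Its r was 0.646 without the 2 libraries farthest in chondrocyte score, 0.810 at 4 weeks (exact p = 0.0486) and 0.956 at 12 weeks (exact p = 0.00556, n = 6 each). Fgfr3 had r = 0.642 (adjusted permutation p = 0.0894) and rho = 0.727 (adjusted permutation p = 0.0417) over both weeks, and 0.915 at 4 weeks (exact p = 0.0125) and 0.871 at 12 weeks (exact p = 0.0222, n = 6 each) within them. At 4 weeks the same genes varied with the skeletal muscle genes about as closely, with r = 0.911 for Fgfr3 (exact p = 0.00833) and 0.798 for Fgf2 (exact p = 0.0458, n = 6 each). At 12 weeks those values were -0.24 (exact p = 0.636) and 0.014 (exact p = 0.983, n = 6 each). Fgfr2 and Fgfrl1 each had a rho of 0.741 with chondrocyte genes (adjusted permutation p = 0.0417 each) over both weeks. Their r over both weeks did not pass, at 0.740 (adjusted permutation p = 0.0528) and 0.667 (adjusted permutation p = 0.0894), respectively. Within weeks r was 0.904 and 0.775 at 4 weeks and 0.853 and 0.760 at 12 weeks (n = 6 each). With muscle genes r was 0.887 and 0.813 at 4 weeks and -0.36 and 0.46 at 12 weeks. Spry1 had a rho of 0.755 with muscle genes (adjusted permutation p = 0.0417) and of 0.734 with chondrocyte genes (adjusted permutation p = 0.0417) over both weeks. Its r over both weeks did not pass, at 0.630 (adjusted permutation p = 0.0952) and 0.665 (adjusted permutation p = 0.0894), respectively. At 4 weeks r was 0.949 (exact p = 0.00556) and 0.927 (exact p = 0.0125, n = 6 each), respectively. At 12 weeks these Spry1 values were 0.616 (exact p = 0.190) and 0.528 (exact p = 0.282, n = 6 each). Fgf18 followed the synovial fibroblast genes with r = 0.774 (adjusted permutation p = 0.0508) and rho = 0.755 (adjusted permutation p = 0.0417). That relation was 0.407 at 4 weeks (exact p = 0.429) and 0.800 at 12 weeks (exact p = 0.0639, n = 6 each). Dusp6 had r = -0.47 with chondrocyte genes (adjusted permutation p = 0.267). The exact values within weeks are not adjusted.

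**Figure D4:**
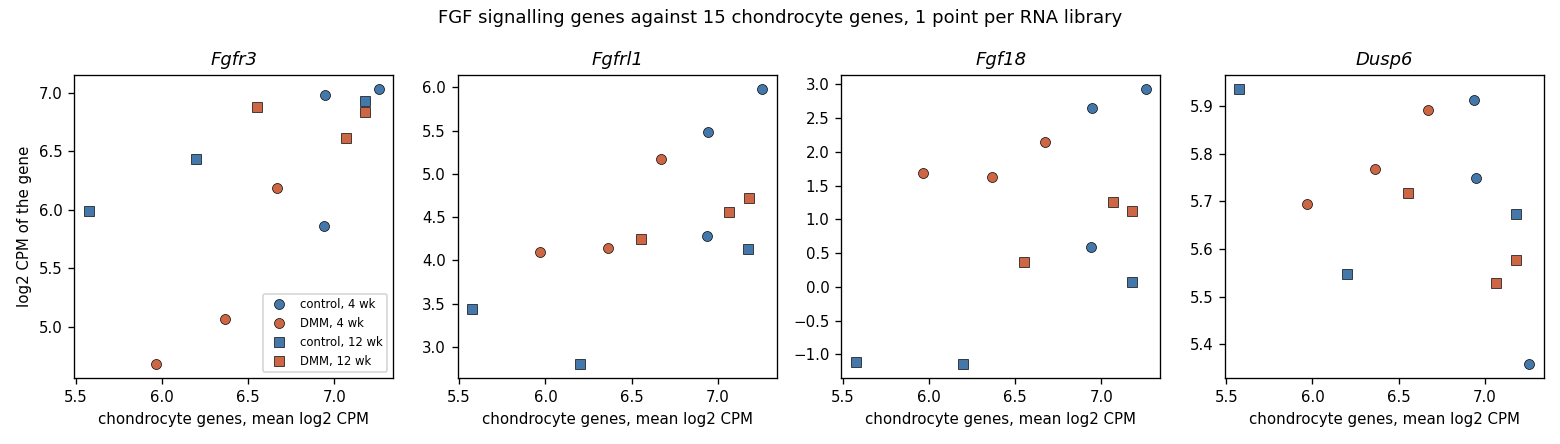
Log2 CPM of Fgfr3, Fgfrl1, Fgf18 and Dusp6 (vertical axes) against the mean log2 CPM of 15 chondrocyte genes (horizontal axes), 1 point per RNA library with circles for 4 weeks and squares for 12 weeks. Fgfr3 is higher where chondrocyte genes are higher within each week (r = 0.915 and 0.871), and Dusp6 is not (r = -0.32 and -0.69).

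Among 15588 other genes, those whose log2 CPM was most like a member's over the 12 libraries were Barx1, Pcsk6 and Spats2 for Fgf18 (Pearson's r 0.970 to 0.983) and Gli1, Gpsm1 and Cry2 for Fgfr3 (0.974 to 0.982). For Fgfrl1 they were Cables1, P3h2 and the row of the microRNA gene Mir1901 (0.975 to 0.987), and for Spry4 they were 2310022B05Rik, Bmp7 and Ephb4 (0.972 to 0.987). Fgfr1 was most like Lrp11, Pitpnm2 and Thra (0.952 to 0.966), Fgfr2 most like Sdk2, Tgfbr3 and Aplp2 (0.935 to 0.956), Fgf2 most like Slc41a1, Lrp11 and Hhat (0.935 to 0.948) and Spry1 most like Thpo, Rxra and Tom1l2 (0.949 to 0.963). The closest matches were weaker for Spry2, with Hr, Shf and Socs3 (0.861 to 0.879), and for Dusp6, with Crtam, Klrb1c and Cd180 (0.812 to 0.834). These are the highest of many values and describe the libraries only.

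The rest of the pathway was read from 70 further genes in 5 lists (other secreted ligands, FGF homologous factors, other receptors and coreceptors, intracellular transducers, and other feedback inhibitors and targets). Of these, 54 were tested at 4 weeks and 52 at 12 weeks, and none passed edgeR's test in either direction. The unadjusted p was under 0.05 in 8 genes at 4 weeks (4 in each direction) and in 15 at 12 weeks, of which 13 had more RNA in DMM. Over all transcripts such a p was found in 13.7% and 16.3%. Their median log2 fold change was -0.08 at 4 weeks and 0.19 at 12 weeks, against -0.03 and 0.01 over all transcripts.

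Among the other ligands, Fgf1 had 52.8 ± 10.3 CPM in controls and 81.2 ± 13.2 CPM in DMM at 12 weeks (SD, n = 3), with a log2 fold change of 0.63 ± 0.18 (SE, edgeR adjusted p = 0.219). Fgf9 had 2.39 ± 0.652 and 4.83 ± 1.29 CPM (SD, n = 3), with a log2 fold change of 1.02 ± 0.30 (SE, edgeR adjusted p = 0.236). Both are secreted ligands, named here because every DMM library lay above every control at 12 weeks, as in 10% of all transcripts. At 4 weeks the limbs overlapped in both, with log2 fold changes of 0.17 ± 0.20 and 0.34 ± 0.35 (SE), respectively. Of 13 receptors and coreceptors tested at 12 weeks, 12 had a log2 fold change above 0 and 5 an unadjusted p under 0.05, which 16.3% of all transcripts had. Sdc2, a heparan sulfate proteoglycan of the cell surface, was at 190.0 ± 67.2 and 424 ± 92.3 CPM at 4 weeks and at 73.0 ± 12.3 and 153 ± 38.9 CPM at 12 weeks in control and DMM, respectively (SD, n = 3). Its log2 fold changes were 1.16 ± 0.32 (SE, edgeR adjusted p = 0.255) and 1.07 ± 0.22 (SE, edgeR adjusted p = 0.170). Sdc3, of the same family, had a log2 fold change of 0.93 ± 0.26 at 12 weeks but of -0.57 ± 0.31 at 4 weeks (SE). The glypican Gpc4 had 0.42 ± 0.14 at 12 weeks and -0.0059 ± 0.26 at 4 weeks, and Flrt2 had 0.81 ± 0.25 at 4 weeks and 0.021 ± 0.33 at 12 weeks (SE, log2 fold change).

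Of the 20 transducers, the limbs did not overlap in 4 at 4 weeks (3 higher and 1 lower in DMM), close to the 10.8% and 10.4% of all transcripts. There Map2k2, a kinase that activates ERK, was at -0.55 ± 0.20, Rps6ka3 at 0.79 ± 0.29 and Braf at 0.20 ± 0.17 (SE, log2 fold change). Of 13 other feedback inhibitors and targets tested, 11 had a log2 fold change above 0 at 12 weeks and 3 at 4 weeks. At 12 weeks Myc, chosen after its values were seen, lay below in every DMM library, at 65.8 ± 2.30 CPM in controls and 45.8 ± 9.51 CPM in DMM (SD, n = 3), with a log2 fold change of -0.52 ± 0.15 (SE, edgeR adjusted p = 0.236). Fosl1, an AP-1 subunit, went from 0.908 ± 0.275 CPM in controls to 2.62 ± 0.533 CPM in DMM at 12 weeks (SD, n = 3), with a log2 fold change of 1.53 ± 0.33 (SE, edgeR adjusted p = 0.192). Etv4, a transcription factor downstream of FGF receptors, had a log2 fold change of 1.15 ± 0.35 (SE, edgeR adjusted p = 0.243) and Il17rd, an inhibitor of FGF signalling also known as Sef, 1.15 ± 0.40 (SE, edgeR adjusted p = 0.263), both at 12 weeks. At 4 weeks the log2 fold changes of these 3 genes were 0.063 ± 0.51, -0.065 ± 0.53 and 0.35 ± 0.44 (SE), respectively. Dusp4, a phosphatase of the same kind as Dusp6, was at 1.66 ± 0.0616 CPM in controls and 0.715 ± 0.221 CPM in DMM at 4 weeks (SD, n = 3), with a log2 fold change of -1.21 ± 0.34 (SE, edgeR adjusted p = 0.260), and at 12 weeks that value was 0.0043 ± 0.35 (SE).

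The promoters of these genes were nearly free of 5mC in both limbs. The window from 1000 bases before to 500 bases after the transcript start held 26 to 137 measured cytosines and 663 to 18521 reads per library in 9 genes, and too few cytosines in Fgfr2. Apart from Fgfrl1, 5mC was between 0.115% and 1.24% of reads in every library. Fgfrl1 was between 1.14% and 2.18%. No member passed limma's test at either week, and 0% of 14384 promoters at 4 weeks and 0% of 14208 at 12 weeks did. At an unadjusted p under 0.05 there was no member at 4 weeks (4.16% of promoters) and 1 at 12 weeks, Spry1 (8.24% of promoters).

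At 12 weeks the libraries did not overlap in 3 genes. Spry1 was at 0.212%, 0.249% and 0.244% in controls and at 0.457%, 0.550% and 0.361% in DMM (log2 odds ratio 0.82 ± 0.29, SE, limma adjusted p = 0.584). Fgf2 was at 0.569%, 0.496% and 0.587% in controls and at 0.732%, 0.769% and 0.855% in DMM (0.43 ± 0.27, SE, limma adjusted p = 0.694). The DMM libraries thus lay above the controls in 2 genes, as they did in 4.27% of promoters. Fgfrl1 was the reverse, with 2.18%, 1.78% and 2.15% in controls and 1.14%, 1.65% and 1.72% in DMM (-0.46 ± 0.30, SE, limma adjusted p = 0.706), and 11% of promoters had every DMM library below. In a window of 500 bases before to 250 after the start the Fgfrl1 log2 odds ratio was 0.25. At 4 weeks only Fgfr1 was apart, at 0.726%, 0.708% and 0.735% in controls and 0.810%, 0.758% and 0.912% in DMM, where 2.93% of promoters had every DMM library above and 6.61% every DMM library below. The start of Fgf18, whose RNA differed most, read 0.649%, 0.547% and 0.526% in controls and 0.508%, 0.480% and 0.604% in DMM at 12 weeks. The CpGs in capitals in the sequences above are part of these windows.

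**Figure D5:**
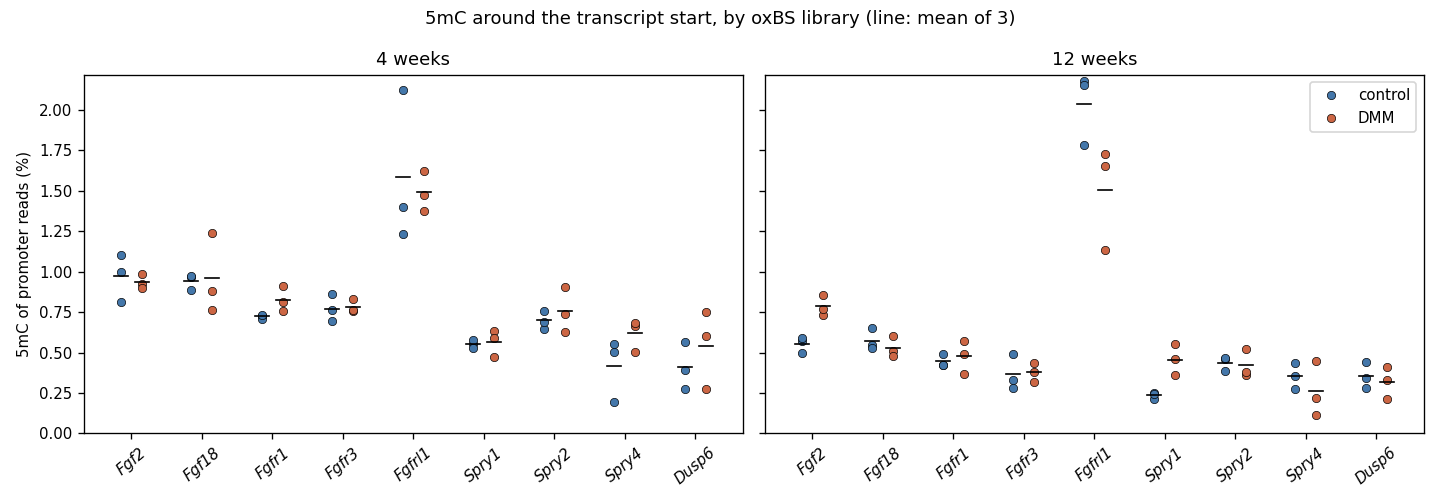
Percentage of reads with 5mC in the window around the transcript start of 9 genes, 1 point per oxBS library with lines for the mean of 3, at 4 weeks (left) and 12 weeks (right). Fgfrl1 lies highest, between 1.14% and 2.18%, and the other genes lie below 1.24%.

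Over the gene bodies with 1000 bases upstream, 1506 cytosines were tested at 4 weeks and 1210 at 12 weeks. Per library, 5mC over these loci ranged from 1.11% in Dusp6 to 26.4% in Spry4. None of these cytosines differed by at least 25 percentage points at a q under 0.05, against 0.000554% of all 1445146 cytosines at 4 weeks and 0.227% of 1273156 at 12 weeks. At an unadjusted p under 0.05 there were 117 (7.77%) at 4 weeks, against 8.02% of all, and 105 (8.68%) at 12 weeks, against 9.43% of all. Of these, 57 of 117 were lower in DMM at 4 weeks (48.7%, against 57.4% among all cytosines with such a p) and 89 of 105 at 12 weeks (84.8%, against 75.3%).

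With a smaller difference of 20 points, 4 cytosines were named at 12 weeks, all lower in DMM and all in receptor genes. These are 4 of 1210 member cytosines, where 0.674% of all cytosines passed and 7589 of those 8581 were lower in DMM, and the receptor loci held 607 of the 1210. The largest difference, of -23.2 points (q = 0.0110), was at position 130210157 of chromosome 7, in intron 6 of Fgfr2, with 48.2%, 55.6% and 59.1% in controls and 30.9%, 46.4% and 21.8% in DMM, from 28 to 81 reads. Every control there was above every DMM library. The second, of -21.9 points (q = 0.0205), was at position 130261095 in intron 2 of Fgfr2, with 44.9%, 60.9% and 32.4% in controls and 25.8%, 20.7% and 18.8% in DMM. The others were in exon 15 of Fgfr1 (chromosome 8, position 25572764, -21.3 points) and in exon 6 of Fgfr3 (chromosome 5, position 33730033, -21.2 points). In these last cases DMM replicate 1 stood apart, at 24.8% in Fgfr3 and 43.6% in Fgfr1, while DMM replicate 2 stood at 65.7% and 77.8%, within the control range. Control replicate 2 was also low, at 42.6% in Fgfr3 and 51.4% in Fgfr1. The other controls read 67.3% and 69.2% in Fgfr3 and 87.5% and 89.7% in Fgfr1. Control replicate 2 and DMM replicate 1 carry titles of another form than the other oxBS libraries of 12 weeks, and the reason is not given. The test pools reads and ignores the spread between libraries. With an overdispersion correction it called none of all cytosines at either week (8193 and 25124 had an unadjusted p under 0.05). The count at 25 points changed when single libraries were left out. Without control replicate 2 it was 1 at 4 weeks (of 3039 called among all cytosines) and 3 at 12 weeks (of 5720). At 12 weeks it was also 3 without DMM replicate 2 (of 4362), 2 without DMM replicate 3 (of 4109) and 1 without control replicate 1 (of 3305) or 3 (of 2248).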

How the data were processed

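Articular cartilage of control and DMM-operated mouse knees was profiled by RNA-seq (12 libraries) and oxBS sequencing (12 libraries). Libraries were grouped by their labels. The members and gene lists were chosen with earlier results of these data known.

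The authors trimmed RNA reads with FLEXBAR, aligned them with STAR (mm10) and ran featureCounts on RefSeq transcripts. Raw counts were deposited by the authors. The methods describe SMART-Seq v4 with Nextera XT libraries, whereas the labels describe poly(A) TruSeq libraries. For oxBS, the authors deposited the coverage count of each CpG cytosine and the percent of reads with C and T, with at least 10 reads. The bisulfite libraries without oxidation were not used here. The paper states that the control and DMM limbs compared by RNA-seq belonged to the same mice. Whether same-numbered libraries pool knees of the same mice is not given in the sources used here.

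Counts were tested with edgeR 4.0.16 (TMM, filterByExpr, robust quasi-likelihood, R 4.3.3) over all transcripts with Benjamini-Hochberg adjustment. Weeks were compared in 1 fit of 12 libraries. CPM used TMM factors, and log2 CPM a prior count of 2. Promoters were tested with limma 3.58.1 on the logit of pooled methylated reads, with 1 read added to each side and at least 5 cytosines with 10 reads in all 6 libraries. Cytosines were tested by a likelihood ratio test of pooled reads (scipy 1.17.1). Member-locus positions, 2716 over both weeks, were checked to be CpG cytosines of GRCm38. Correlations used 100000 permutations of the 12 libraries, without regard to limb or week. The tests were run on simulated data: for promoters, 77 of 100 with a 3-fold change in odds were recovered at 4 weeks and 32 of 100 at 12 weeks, and 100 and 99 of 100 with a 10-fold change. The changed promoters were drawn from all promoters, the changes were increases only and the spread between simulated libraries was fixed. These rates therefore need not hold for the member promoters, which had little 5mC.

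Named genes were the 10 members and, per list and week, up to 3 genes with the largest change among those without overlap between limbs and a mean of at least 1 CPM. Some genes that this rule names are not reported here. Alternatives were DESeq2 1.42.0, median-of-ratios factors, other filters, 1 fit of all libraries, 1 transcript per gene, the replicate number as a block, other coverage minimums, windows, scales and thresholds, and leaving out each library. Replicates are pools of 3 knees, and the p-values of edgeR, DESeq2 and limma measure the spread between these pools. Those of the cytosine test on pooled reads do not. RNA depth was 27706547 to 62737656 counts, and median oxBS coverage was 22 to 102 reads.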

Additional observations from a re-analysis of the deposited data

How the results depend on the processing

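Of the settings other than leaving out a library, 45 left the number of members called as it was or within 1.5 times and 3 moved it. DESeq2 called 1 member (Fgf18) for DMM against control at 12 weeks and 2 for 12 against 4 weeks in DMM, and a difference of 20 points named 4 member cytosines at 12 weeks. The log2 odds ratio of the Fgfrl1 promoter at 12 weeks was 0.25 in the shorter window, the 1 reversed value, and the cause was not tested. Leaving out 1 library at a time gave 0 to 2 members called at 12 weeks, 0 to 2 for 12 against 4 weeks in controls and 0 to 4 in DMM, and 0 to 1 member cytosines at 4 weeks (5 to 3039 of all cytosines) and 0 to 3 at 12 weeks (1641 to 5720 of all). In the same runs the log2 fold change at 4 weeks ranged from -0.71 to 0.13 for Fgfr1, from -0.084 to 0.10 for Spry2 and from -0.048 to 0.21 for Dusp6. At 12 weeks it ranged from -0.0014 to 0.64 for Fgf2 and from -0.016 to 0.22 for Fgfr2. For 12 against 4 weeks in controls it ranged from -0.14 to 0.057 for Spry2 (0.018 without control replicate 1 of 12 weeks), from -0.14 to 0.21 for Spry4 and from -0.13 to 0.14 for Dusp6 (-0.12 without control replicate 3 of 12 weeks), and in DMM from -0.27 to 0.40 for Fgfrl1 (0.080 without DMM replicate 3 of 12 weeks).

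With the replicate number as a block, 0 members were called at 4 weeks, at 12 weeks and in the interaction, in RNA and in 5mC, while the number of transcripts called in all rose from 16 to 354 at 4 weeks and from 1 to 734 at 12 weeks. Same-numbered control and DMM libraries deviated together at r = 0.36, -0.33 and 0.08 at 4 weeks and -0.55, 0.26 and -0.25 at 12 weeks. So few values of mixed sign cannot tell whether the numbers are pairs. The main fit treated the libraries as unpaired, and pairing remains unknown. DESeq2 called 747 and 861 transcripts at 4 and 12 weeks. With only 1 transcript per gene, edgeR called 0 at 4 weeks, and without a filter on low counts it called 56 at 12 weeks. Without control replicate 2 and DMM replicate 1 of 12 weeks, whose titles have another form, 0 of 14504 promoters were called. Promoters hold few methylated reads, which limits what the 5mC test can show.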
